A study of Mus musculus with 6 samples.

Results

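The genes described here are the non-kinesin spindle, spindle orientation and cytokinesis genes *Anln*, *Ect2*, *Prc1*, *Racgap1*, *Cep55*, *Cit*, *Tpx2*, *Hmmr*, *Nusap1* and *Sapcd2*. They were found by name, and all 10 stood among the 55367 gene names of the count table. RNA was sequenced from primary mouse keratinocytes, which are epidermal cells taken here from the skin of pups 2 days old and grown in low-calcium medium. All cells had the genotype Ppp1r13lflox/flox;Cre+ERT on a mixed background (C57BL/6 and 129/Sv), with a tamoxifen-dependent Cre expressed from the Rosa26 locus, so the control cells carried the floxed alleles and the Cre as well. For each of 3 batches the cells were divided, and 24 h after plating one culture received medium with tamoxifen (iASPP KO) and the other medium without it (iASPP WT), giving 3 libraries per condition. The cultures were then kept for 4 days, and tamoxifen is listed at 1 mM in the sample labels and at 1 μM in the methods. The drug and the deletion cannot be told apart in this design, because no culture without the Cre received tamoxifen. The comparison asks how expression of these genes differs once keratinocytes lose iASPP, the inhibitor of p53-family proteins that *Ppp1r13l* encodes.

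In mitosis, microtubules nucleated at centrosomes, at chromosomes and along existing microtubules form the bipolar spindle, and cortical proteins set the axis along which it divides the cell. After the chromosomes separate, antiparallel microtubules bundle into the central spindle, the small GTPase RhoA is activated at the equator, and an actomyosin ring closes the furrow until only the midbody joins the daughter cells, where the ESCRT machinery cuts the bridge. In the epidermis, divisions take place in the basal layer, and spindle orientation decides whether both daughters stay there. Transcripts of most of these genes peak late in the cell cycle. In RNA from a whole culture, fewer dividing cells and less RNA in each dividing cell cannot be told apart.

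Library totals ran from 20202517 to 25157117 counts. Levels are given as counts per 1000000 (CPM), scaled by the trimmed mean of M values (TMM), and fold changes are of iASPP KO relative to iASPP WT within batch. *Ppp1r13l* (GRCm38 chr7:19359749-19378533, plus strand) had 320, 395 and 139 counts in KO batches 1 to 3 and 697, 1100 and 472 in WT, a log2 fold change of −1.45 (SE 0.18, adjusted p = 0.00296 by the quasi-likelihood test of edgeR, with Benjamini-Hochberg adjustment here and below over all tested genes). The deletion removes exon 8, and reads on the other exons were still counted. All 10 keratinocyte markers were tested and their summed level was 32088 to 35534 CPM in KO and 31221 to 38503 in WT. Of these markers 0 passed the edgeR threshold, 1 was higher at an unadjusted p under 0.05, and DESeq2 called 0. Without the filter on low counts edgeR called *Krt15* (adjusted p = 0.0160), whose log2 fold change was positive with each batch left out. Without batch 3 edgeR called *Col17a1* lower (log2 fold change −0.39, adjusted p = 0.00533). Both are named after their values were seen. The replicates are batches of cells and batch is in the model, so p-values measure the spread of the KO-to-WT difference between batches.

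Of the 10 genes, 9 had significantly lower expression in iASPP KO keratinocytes, against 1.95% of the 14916 genes tested (291 lower; another 323, or 2.17%, were higher). Because the 10 genes were chosen with earlier results of these data known, this contrast is a description and not a test of the list. All 10 passed the filter on low counts, the lowest count in any library being 12 (*Sapcd2*). *Cit*, with a log2 fold change of −1.35, was the one that did not pass (adjusted p = 0.0611, edgeR). The fitted log2 fold changes of the 10 genes ran from −2.10 for *Sapcd2* to −0.88 for *Tpx2*, with a median of −1.27, beside a median of 0.01 over all tested genes. A log2 fold change of −0.88 or lower was found for 5.71% of tested genes. Each of the 10 genes was lower in KO than in WT in all 3 batches, as were 19.5% of the tested genes. The groups nevertheless overlapped for 9 of the 10 genes when batches were ignored, because batch 3 held the highest level in both conditions for all 10 (26.1% of tested genes had that pattern). Only *Anln* had every KO library below every WT library, a pattern found in 5.46% of tested genes. The 9 calls therefore rest on the comparison within batch: with condition alone in the edgeR model 0 of the 10 were called (adjusted p 0.973 to 0.977), and 2 of them, *Anln* and *Cit*, had an unadjusted p under 0.05. In that model 331 of the 14916 tested genes were lower at an unadjusted p under 0.05.

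**Figure D1:**
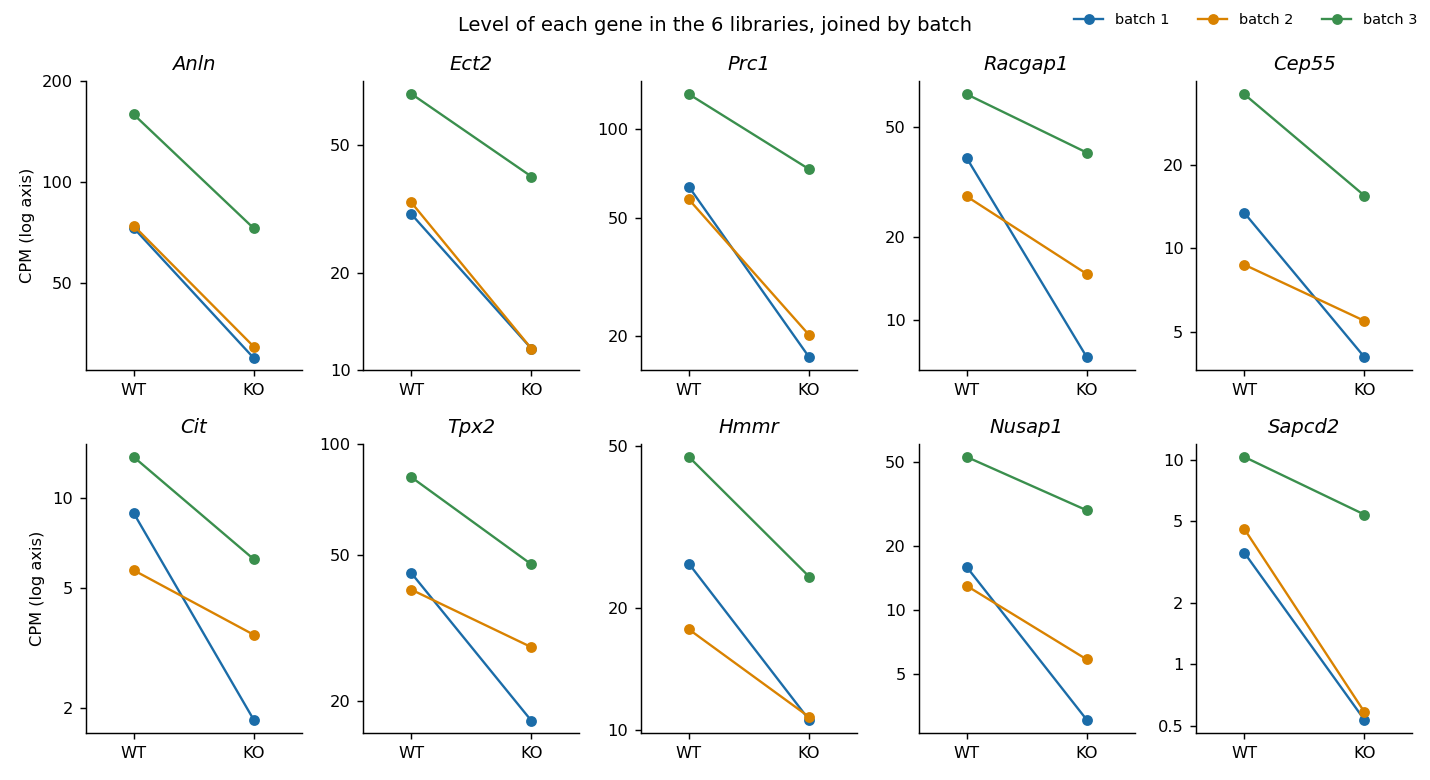
Level of each gene in CPM (log axis; each panel has its own scale) in the iASPP WT and iASPP KO library of each batch, with lines joining the cultures of 1 batch. All 30 lines fall from WT to KO, and batch 3 lies above the other batches in every panel.

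Summed over the 10 genes, the level was 104, 133 and 354 CPM in KO batches 1 to 3 and 318, 283 and 669 CPM in WT. The KO sum was thus 32.6%, 47.0% and 52.9% of the WT sum of the same batch. The KO culture of batch 3 lay above the WT cultures of batches 1 and 2, which is the overlap described above. Among these genes, 7 had a KO level in batch 3 above both of those WT levels, and 9 above at least 1 of them. Batch 3 also differed in other cells: the summed level of 10 fibroblast markers was 490 CPM in KO and 706 CPM in WT of batch 3 and 41.5 to 56.2 CPM in the other libraries. In batches 1 and 2 that sum was 42.5 and 56.2 CPM in KO and 41.5 and 52.0 CPM in WT. Of these markers *Col1a2* and *Col3a1* were lower in KO, with log2 fold changes of −0.55 and −0.87 (adjusted p = 0.0428 and 0.0269, edgeR), and the other 8 did not pass. Among those 8, 1 was higher at an unadjusted p under 0.05. Leaving out batch 2 or batch 3 ended the calls of *Col1a2* and *Col3a1* (adjusted p 0.0715 to 0.275), and leaving out batch 1 ended that of *Col1a2* (adjusted p = 0.105). Without batch 3 edgeR called the marker *Pdgfra* higher (log2 fold change 1.46, adjusted p = 5.8e-07), as it did without the filter on low counts (0.00243). *Pdgfra* is named after its values were seen. Of 8 tested macrophage markers 1 was called, *Csf1r*, which was higher in KO (log2 fold change 1.11, adjusted p = 0.0206, edgeR), a call lost without batch 1 (0.0612) or batch 2 (0.112). The summed macrophage level was 67.7 to 85.7 CPM in KO and 46.0 to 69.1 CPM in WT. The melanocyte sum was 434 to 1070 CPM in KO and 369 to 1132 CPM in WT, and the endothelial sum 11.8 to 26.6 CPM in KO and 14.3 to 18.5 CPM in WT. Of the 8 melanocyte and 5 endothelial markers tested, 0 passed the edgeR threshold, 0 had an unadjusted p under 0.05 and DESeq2 called 0. Without batch 3 edgeR called the endothelial marker *Kdr* higher (log2 fold change 1.72, adjusted p = 0.0383), named after its values were seen. In no marker list was a gene at 0 in all libraries. The part of these other cells in the levels of the 10 genes was not tested.

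The promoters were read for the elements that late cell-cycle genes are known to share. The cell cycle genes homology region (CHR) is bound by the MuvB complexes that hold such genes silent in resting cells and activate them before mitosis, and it often lies near CCAAT boxes, which NF-Y binds. RefSeq promoter windows of GRCm38.p6, from 250 bases before to 50 after each start site, were given for 9 of the 10 genes, and *Tpx2* was not among them. Searched on both strands, the CHR letters TTTGAA stood in a window of 6 of these 9 genes, beside 14.5% of the tested genes with a window, 20.2% of all 27025 genes with one and 32.4% of the genes called lower. The 6 are *Anln*, *Ect2*, *Prc1*, *Racgap1*, *Cep55* and *Hmmr*, and their sequences are shown because the match lies within the window of genes that moved together. Each is given on the strand of the gene, with CHR matches (TTCAAA where the match is on the other strand) and CCAAT matches (likewise ATTGG) in capitals. A match is a description of the letters and not evidence of binding.
*Anln*, chr9:22389165-22389193, minus strand: cgctgaaaTTCAAAtTTTGAAcggccgtg
*Ect2*, chr3:27153879-27154000, minus strand: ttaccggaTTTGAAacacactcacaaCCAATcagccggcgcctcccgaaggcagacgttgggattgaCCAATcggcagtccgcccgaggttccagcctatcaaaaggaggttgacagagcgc
*Prc1*, chr7:80294406-80294459, plus strand: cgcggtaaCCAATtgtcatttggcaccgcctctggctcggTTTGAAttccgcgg
*Racgap1*, chr15:99651638-99651659, minus strand: tgcgtgatTTTGAAccggatct
*Cep55*, chr19:38055000-38055021, plus strand: ccgcgggaTTCAAActcccgga
*Hmmr*, chr11:40733416-40733437, minus strand: gaggtaaaTTTGAAttcaggcg
*Hmmr*, upstream of that stretch, chr11:40733438-40733617, minus strand: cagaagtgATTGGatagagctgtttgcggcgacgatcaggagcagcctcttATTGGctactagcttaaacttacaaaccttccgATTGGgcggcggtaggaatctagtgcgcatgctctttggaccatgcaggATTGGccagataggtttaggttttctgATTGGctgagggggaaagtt

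The *Anln* window held 2 CHR matches, 1 on each strand and 1 base apart, and the *Ect2* window held a second one downstream of the start. For *Ect2* the stretch shown holds the upstream match, at −114 bases from the start, and not the nearer one, at 39. CCAAT boxes stood in the windows of 4 of the 9 genes (*Ect2*, *Prc1*, *Racgap1* and *Hmmr*), beside 42.9% of tested genes and 58.1% of the genes called lower. *Hmmr* had 5 of them, all on the other strand, and *Ect2* had 3. No CHR match overlapped a CCAAT match in these windows. The related letters TTTAAA and TTCGAA were found in 0 of the 9 genes, against 11.3% and 2.39% of tested genes, and the E2F letters TTTCCCGC or TTTGGCGC (either strand) in 0 as well, against 3.38%. *Cit*, *Nusap1* and *Sapcd2* had no match to any of these letters in their windows.

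**Figure D2:**
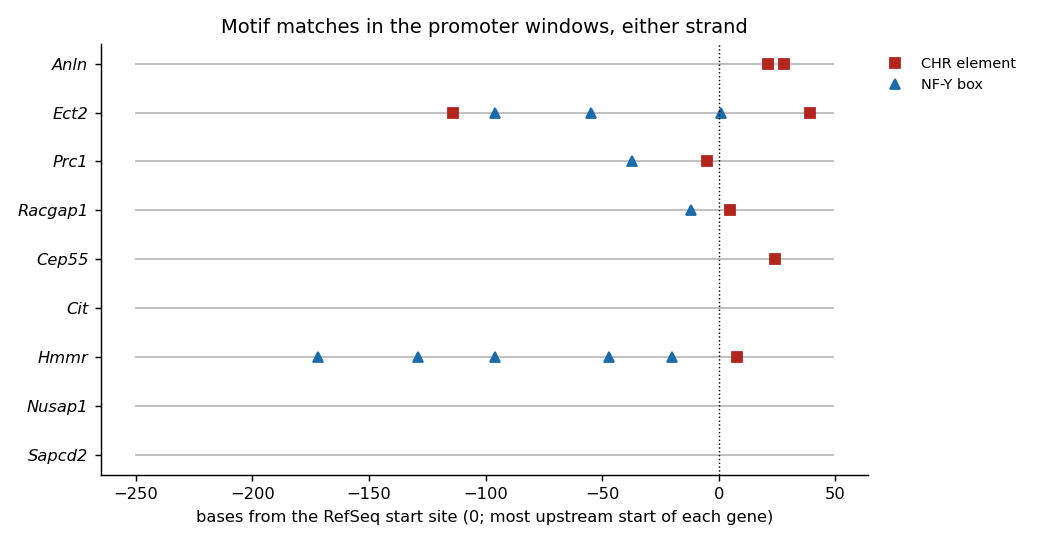
Positions of CHR (squares) and CCAAT (NF-Y box, triangles) matches on either strand in the promoter window of each gene, in bases from the most upstream RefSeq start site (dotted line at 0). Each of the 6 genes with a CHR match has at least 1 within 50 bases of the start, and the windows of *Cit*, *Nusap1* and *Sapcd2* are empty.

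At the central spindle, both genes were lower in iASPP KO. *Prc1* (chr7:80294450-80316259, plus strand) encodes the protein that crosslinks antiparallel microtubules of the central spindle. Its level was 17.0, 20.2 and 73.1 CPM in KO batches 1 to 3 and 63.8, 57.8 and 131 CPM in WT. The KO culture of batch 3 stood above the WT cultures of batches 1 and 2, so the groups overlapped, while each KO culture stood below the WT culture of its own batch. The log2 fold change was −1.41 (SE 0.19, adjusted p = 0.00391, edgeR). *Racgap1* (chr15:99620496-99651656, minus strand) encodes a subunit of centralspindlin, which bundles these microtubules and recruits *Ect2*. It had 7.35, 14.7 and 40.3 CPM in KO and 38.6, 28.0 and 65.6 CPM in WT. Its KO level was 19.0% of WT in batch 1 but 52.4% and 61.5% in batches 2 and 3. Its log2 fold change was −1.31 (SE 0.28, adjusted p = 0.0301, edgeR), and the call was lost with DESeq2 (adjusted p = 0.0893) and with edgeR's robust dispersion (0.0762). Without batch 1 the fold change was −0.81 on the log2 scale (adjusted p = 0.0495). Of the 42-base windows of its longest transcript, 1.89% also occurred in a transcript of another gene.

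At the cleavage furrow, both genes fell in every fit that kept the batches in the model. *Ect2* (chr3:27097222-27153878, minus strand) encodes the exchange factor that loads RhoA with GTP at the equator. *Ect2* stood at 11.7, 11.7 and 40.0 CPM in KO and 30.6, 33.3 and 72.4 CPM in WT. Both lower KO cultures had nearly the same level, and the KO culture of batch 3 again exceeded the WT cultures of the other batches. Fitted over the batches, it changed by −1.24 on the log2 scale (SE 0.17, adjusted p = 0.00431, edgeR). *Anln* (chr9:22332012-22389188, minus strand) encodes anillin, the scaffold that ties RhoA, actin, myosin and septins together in the ring. *Anln* had 673, 722 and 1716 counts in KO and 1561, 1811 and 3575 in WT, or 30.0, 32.4 and 72.9 CPM against 73.1, 74.3 and 159 CPM. The highest KO level lay just under the lowest WT level, which made it the only gene of the 10 with separate groups. Its KO level was 41.0%, 43.6% and 45.8% of WT in the 3 batches, the narrowest spread among the 10 genes, and the fitted log2 fold change was −1.20 (SE 0.12, adjusted p = 0.00109, edgeR).

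At the midbody, *Cep55* passed the test and *Cit* did not. *Cep55* (chr19:38055011-38074423, plus strand) encodes the midbody protein that recruits ALIX and TSG101, and through them the ESCRT machinery. Its level was 4.05, 5.48 and 15.5 CPM in KO and 13.5, 8.74 and 36.0 CPM in WT. Its fall was smallest in batch 2, where KO was 62.7% of WT. The log2 fold change was −1.20 (SE 0.24, adjusted p = 0.0228, edgeR), and without batch 1 the call was lost (adjusted p = 0.0891). *Cit* (chr5:115845278-116008947, plus strand) encodes citron kinase, which keeps the midbody in order. It had 41, 78 and 147 counts in KO and 190, 140 and 307 in WT, that is 1.83, 3.50 and 6.25 CPM against 8.90, 5.74 and 13.7 CPM. KO was below WT in each batch, at 20.5%, 61.0% and 45.7% of its level. The log2 fold change of −1.35 had the second largest SE of the 10 genes (0.35), and its adjusted p of 0.0611 (edgeR) became 0.0200 with DESeq2, 0.0360 with edgeR's robust dispersion, 0.00175 without the filter on low counts and 0.00807 without batch 3. Without batch 1 it was 0.299.

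The microtubule-binding proteins of the forming spindle were all 3 lower in iASPP KO. *Tpx2* (chr2:152847964-152895321, plus strand) encodes the *Ran*-regulated factor that nucleates microtubules around chromosomes and activates Aurora A. Its level was 17.7, 28.0 and 47.0 CPM in KO and 44.6, 40.2 and 81.2 CPM in WT. It changed least of the 10 genes, with a log2 fold change of −0.88 (SE 0.17, adjusted p = 0.0204, edgeR), and the call was lost without batch 1 (adjusted p = 0.0970). *Hmmr* (chr11:40701395-40733422, minus strand) encodes RHAMM, a hyaluronan receptor that also binds spindle microtubules and *Tpx2*. It stood at 10.6, 10.8 and 23.8 CPM in KO and 25.6, 17.7 and 46.9 CPM in WT. In this gene the KO culture of batch 3 exceeded the WT culture of batch 2 but not that of batch 1. The log2 fold change was −0.99 (SE 0.18, adjusted p = 0.0149, edgeR), and the call was also lost without batch 1 (adjusted p = 0.0739). Of its 42-base windows, 2.62% were shared with other transcripts, the highest share of the 10 genes. *Nusap1* (chr2:119618298-119651244, plus strand) encodes a protein that bundles microtubules next to chromosomes. Its level was 3.03, 5.84 and 29.5 CPM in KO and 16.0, 13.0 and 52.8 CPM in WT. This gene had the widest batch difference among the WT cultures, batch 3 standing 3.64 times above the mean of the other batches. *Nusap1* changed by −1.41 on the log2 scale (SE 0.27, adjusted p = 0.0209, edgeR).

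Spindle orientation was represented by *Sapcd2* (chr2:25372321-25378213, plus strand), whose protein binds the cortical adaptor LGN (encoded by *Gpsm2*) and alters spindle orientation. It had 12, 13 and 127 counts in KO and 75, 112 and 232 in WT, the lowest counts of the 10 genes. In CPM these were 0.534, 0.584 and 5.40 in KO and 3.51, 4.59 and 10.3 in WT. Both lower KO cultures held a small share of the WT level (15.2% and 12.7%), while in batch 3 KO held 52.2%. The fitted log2 fold change of −2.10 was the largest of the 10 genes and had the largest SE (0.49; adjusted p = 0.0411, edgeR). The call was lost without batch 1 (adjusted p = 0.107) and without batch 2 (0.162), and the log2 fold change was −1.82 without batch 1, −1.69 without batch 2 and −2.84 without batch 3. *Gpsm2* itself did not pass (log2 fold change −0.40, adjusted p = 0.327, edgeR), with 34.9, 36.6 and 56.1 CPM in KO and 42.5, 34.5 and 110 CPM in WT.

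Within single batches, the size of the fall varied more than its direction. Each within-batch log2 fold change was given a 95% interval from the 2 counts (exact conditional binomial, Clopper-Pearson), which reflects the error of counting alone, as PCR copies of one molecule cannot be recognized without tags. All 30 intervals lay below 0. In batches 1 to 3 the median over the 10 genes was −1.82, −1.04 and −0.90, and KO held a median of 28.4%, 48.6% and 53.8% of the WT level. Over the genes, values ran from −2.72 to −1.27 in batch 1, from −2.98 to −0.52 in batch 2, and from −1.22 to −0.70 in batch 3. Batch 1 thus gave the largest fall for 8 of the genes and batch 2 for *Ect2* and *Sapcd2*. In 7 genes the interval of batch 1 lay wholly below that of batch 3, and in 7 wholly below that of batch 2. For *Anln* the 3 values were −1.29, −1.20 and −1.13. For *Nusap1* they were −2.40, −1.16 and −0.84, and for *Sapcd2* −2.72 (−3.73 to −1.83), −2.98 (−3.93 to −2.14) and −0.94 (−1.26 to −0.62). These are differences between single pairs of cultures, and with 1 pair per batch the change of the effect between batches could not be tested over replicates.

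**Figure D3:**
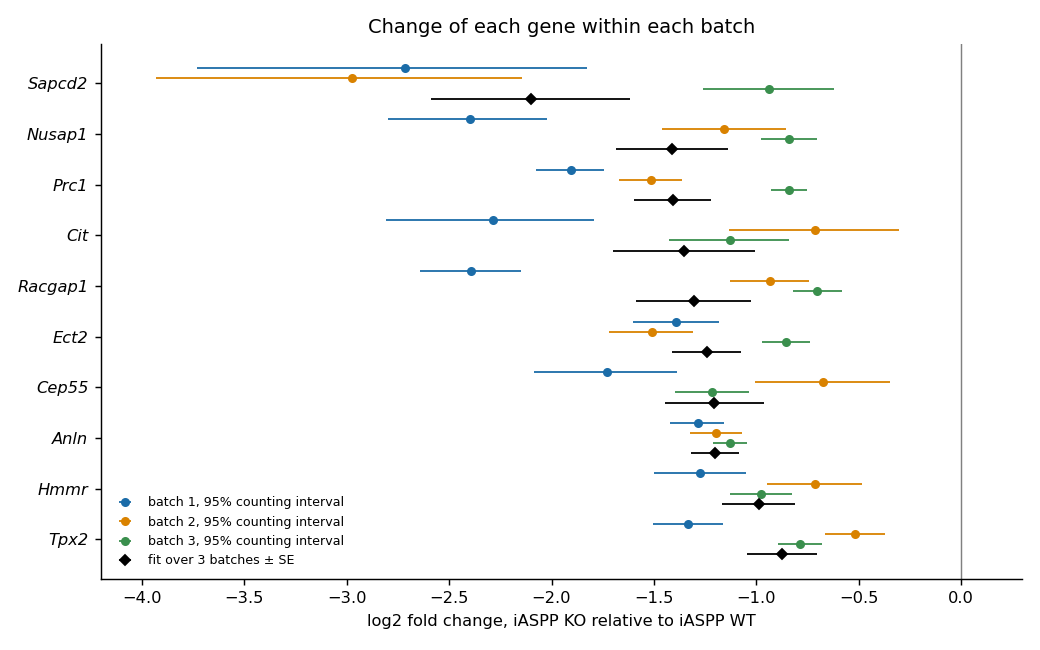
Log2 fold change (iASPP KO relative to iASPP WT) of each gene in each batch, with 95% counting intervals, beside the fitted value over the 3 batches (diamonds, ± SE). All intervals lie below 0, and the batch 3 values span −1.22 to −0.70, less than those of batch 1 (−2.72 to −1.27).

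Against the median of the other 9 genes, *Sapcd2* was the lower one in all 3 batches, by log2 differences of −0.99, −2.04 and −0.08, and *Tpx2* the higher one in all 3, by 0.57, 0.64 and 0.15. The other 8 genes were below that median in 1 or 2 batches. These differences were picked after the values were seen and were given no test. The levels themselves also rose together in batch 3. WT of batch 3 stood 1.87 to 3.64 times above the mean of WT batches 1 and 2, and KO of batch 3 stood 2.06 to 9.65 times above the mean of KO batches 1 and 2. The extremes in KO were *Tpx2* and *Sapcd2*.

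Per kilobase of merged exons, the most abundant of these transcripts in WT were *Tpx2* (11.8 ± 4.81 CPM per kb, SD, n = 3), *Anln* (11.3 ± 5.45), *Prc1* (10.2 ± 4.93) and *Ect2* (8.43 ± 4.34). *Nusap1* (6.71 ± 5.46), *Cep55* (6.68 ± 5.02), *Racgap1* (6.22 ± 2.74) and *Hmmr* (5.54 ± 2.78) followed. *Sapcd2* (1.76 ± 1.05) and *Cit* (0.575 ± 0.243) were lowest. From *Tpx2* to *Hmmr*, neighbours in this order differed by less than their SDs, which include the batch difference described above. *Hmmr* and *Sapcd2*, and *Sapcd2* and *Cit*, differed by more than either SD, and in both pairs the first gene was the higher one in all 3 WT libraries. The middle of the order was set by batch 3. In WT of batches 1 and 2 *Racgap1* took the largest share of the summed level per kilobase among the 4 genes from *Nusap1* to *Hmmr* (10.6% and 8.78%), followed by *Hmmr* (9.20% and 7.22%), and in batch 3 *Nusap1* did (11.7%). *Tpx2* lay above *Anln* in WT of batches 1 and 2 and below it in batch 3 (15.6% against 15.8%). In KO the levels per kilobase ran from 0.235 for *Cit* to 6.61 for *Tpx2*. Merged exons exceed the length of the longest transcript, which lowers the values per kilobase. In bases the excess was largest for *Cit* (16417 against 9514 for its longest transcript). In proportion it was larger for *Prc1* (8225 against 3645) and *Anln* (9063 against 4605) than for *Cit*.

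The direct partners of these proteins were followed as a second list of 13 genes, of which 4 were significantly lower in KO. Over all tested genes, edgeR called 1.95% lower. None of the 13 passed in the other direction in edgeR or DESeq2, nor at an unadjusted p under 0.05, and 11 had a negative log2 fold change, as had 49.4% of all tested genes. The median of the list was −0.88. The called partners were the kinases *Aurka* and *Plk1* and the kinesins *Kif4* and *Kif20a*. *Aurka*, the kinase that *Tpx2* activates, had 6.10, 5.61 and 32.8 CPM in KO and 19.3, 23.1 and 56.1 CPM in WT, with a log2 fold change of −1.46 (SE 0.24, adjusted p = 0.00955, edgeR). *Kif4*, the kinesin that *Prc1* brings to the central spindle, had 12.8, 10.5 and 35.0 CPM in KO and 40.7, 35.8 and 54.8 CPM in WT, and its groups did not overlap (log2 fold change −1.35, adjusted p = 0.00972, edgeR). *Kif20a*, a midzone kinesin needed for cytokinesis, changed by −1.23 on the log2 scale (adjusted p = 0.00876, edgeR). *Plk1*, the kinase that lets *Ect2* bind *Racgap1*, changed by −1.10 (adjusted p = 0.0449, edgeR), a call lost without batch 1 (0.131) or batch 2 (0.197). The others did not pass with edgeR. *Aurkb*, which phosphorylates centralspindlin, had a log2 fold change of −1.16 (adjusted p = 0.0714), *Kif23*, the kinesin of centralspindlin, −0.98 (0.103), and *Brca1*, a ubiquitin ligase that acts on *Hmmr*, −0.74 (0.0855). DESeq2 called all 3 of these (adjusted p = 0.00720, 0.0361 and 0.0378). *Kif14*, the kinesin that localizes citron kinase, had −0.88 (0.185). The values were smaller for *Dynll1* (a dynein light chain, −0.32), *Ckap5* (a microtubule polymerase, −0.26) and *Rhoa* itself (−0.16), and positive for the ESCRT adaptors *Pdcd6ip*, which encodes ALIX (0.14), and *Tsg101* (0.16), with adjusted p from 0.353 to 0.709 in edgeR.

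Wider lists, with the 10 genes left out, held a smaller share of changed genes. Their counts stand beside the 1.95% of all tested genes that edgeR called lower. Of 46 other spindle assembly genes, 9 were lower in KO and 37 did not pass, with a median log2 fold change of −0.29. This list shares *Aurka* and *Ckap5* with the partners. The 4 with the lowest adjusted p were *Tacc3*, which stabilizes spindle microtubules with clathrin and *Ckap5* (−0.97, 0.00509), *Aurka*, *Aspm*, which acts at microtubule minus ends (−1.49, 0.00962), and *Dlgap5*, a kinetochore fibre protein that works with *Tpx2* and *Aurka* (−1.05, 0.0142, all edgeR). Without batch 1 or without batch 2 the list had 4 calls, *Dlgap5* being lost without batch 2 (adjusted p = 0.0720), and without batch 3 it had 12. Of 45 other cytokinesis genes, 3 were lower and 42 did not pass, with a median of −0.06. The 3 were *Cdca8*, a subunit of the chromosomal passenger complex (−1.32, adjusted p = 0.00267, edgeR), *Diaph3*, a formin of the contractile ring (−0.83, 0.0354), and *Plk1*, which is also among the partners. Without batch 1 this list had 1 call (*Cdca8*), without batch 2 it had 2, and without batch 3 it had 8; *Diaph3* was lost without batch 1 (0.204) or batch 2 (0.162). With all batches, 0 genes of these lists were called higher by edgeR or DESeq2, and 2 genes of each were higher at an unadjusted p under 0.05. Without batch 3, edgeR called the spindle assembly genes *Haus7* (log2 fold change 0.57, adjusted p = 0.00413) and *Cltc* (0.37, 0.0259) and the cytokinesis gene *Anxa11* (0.94, 5.5e-05) higher, and these are named after their values were seen.

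Of 31 spindle orientation genes, 0 were called in either direction by edgeR, and the median was −0.04. At an unadjusted edgeR p under 0.05, 3 were lower and 5 higher. The share of all tested genes at that threshold was not counted with batch in the model. DESeq2 called 1 lower (*Prkci*, adjusted p = 0.0499) and 1 higher (*Afdn*, 0.0471), named here after their values were seen. Without batch 3 edgeR called 3 lower (*Prkci*, *Gnai1* and *Itgb1*) and also called *Gpsm1*, which was higher. *Numa1*, the dynein adaptor that binds LGN at the cortex, had 162, 192 and 187 CPM in KO and 214, 216 and 169 CPM in WT (log2 fold change −0.14, adjusted p = 0.670, edgeR). Its KO level was below WT in batches 1 and 2 and above it in batch 3.

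**Figure D4:**
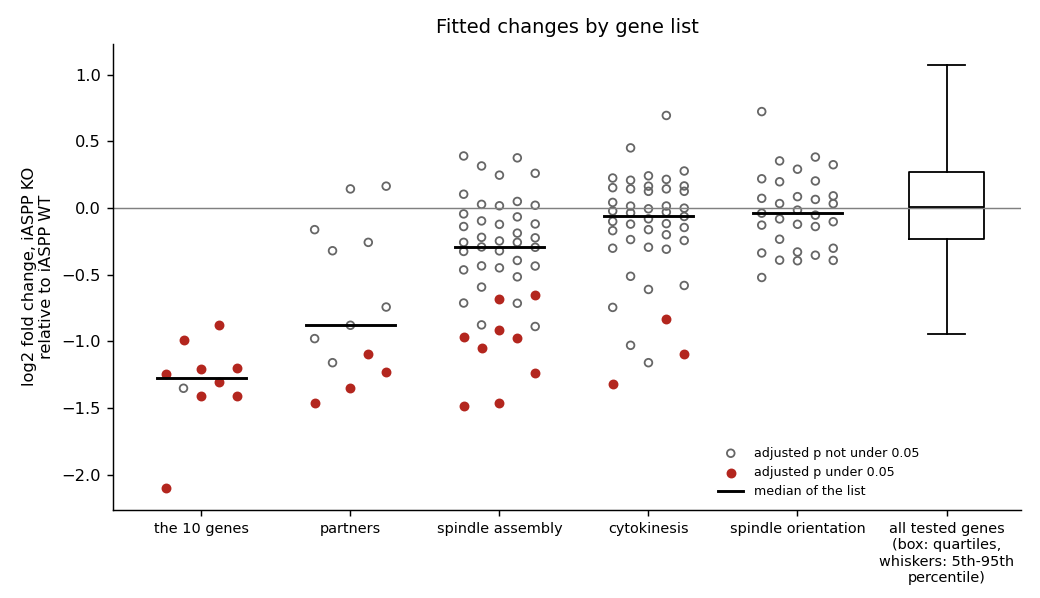
Fitted log2 fold change of each tested gene by list (points; filled where the edgeR adjusted p is under 0.05; bar, median), with the 10 genes left out of the other lists, and the quartiles and 5th to 95th percentiles of all tested genes at right. The medians are −1.27 for the 10 genes, −0.88 for the partners, −0.29, −0.06 and −0.04 for the wider lists and 0.01 for all tested genes.

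The genes whose pattern over the 6 libraries was most like the mean pattern of the 10 genes were sought by the root mean square difference of log2 CPM, each gene centred on its own mean. They were *Knl1*, a kinetochore scaffold (0.120), *Cdca8* (0.124), *H1f5*, a linker histone of a family with similar copies (0.127), *Cenpq*, a kinetochore subunit (0.130), and *Ncapg*, a condensin subunit (0.164). The median distance of all tested genes outside the 10 was 1.06. All 5 were lower in KO, with log2 fold changes of −1.08 to −1.32, and since the pattern includes the condition these values follow from how the genes were picked. The call of *Knl1* was lost without batch 1 (adjusted p = 0.101, edgeR) or batch 2 (0.0736). Of the 10 genes themselves, *Prc1* lay nearest to their mean (0.108), with 0 tested genes outside the 10 nearer, and *Sapcd2* farthest (0.612), with 572 nearer. Each of the 10 genes is part of that mean, which shortens its own distance beside those of other genes.

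**Figure D5:**
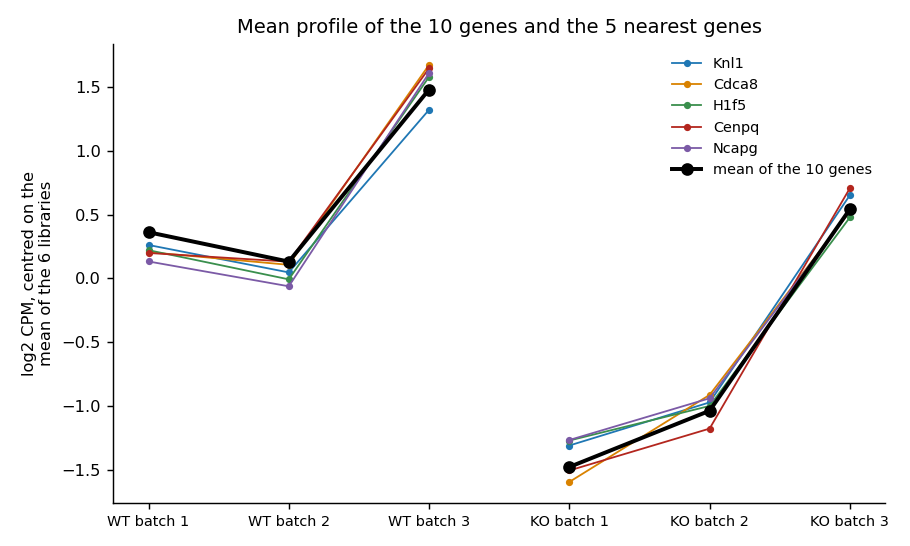
Centred log2 CPM in the 6 libraries for the mean of the 10 genes (black) and the 5 nearest genes. In both conditions the batch 3 library is highest, and each KO point lies below the WT point of the same batch.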

How the data were processed

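RNA of 3 iASPP KO and 3 iASPP WT keratinocyte cultures was depleted of ribosomal RNA and sequenced as single reads of 42 nt. The authors trimmed reads with cutadapt 2.10, aligned them to GRCm38 with STAR (version 2.7.3 in the submitters' processing notes) and the GENCODE vM25 annotation, and deposited raw counts per gene name from featureCounts 2.0.0, per the file headers counted on exons and by strand. Exons sharing a name were summed, and 7 names pool several chromosomes. A deposited table of the authors' DESeq2 comparison (fold changes and p-values) was not used. Samples were grouped and paired by the labels, whose batch equals the replicate number. Same-batch deviations from the condition means correlated at 0.302, 0.368 and 0.568, and other pairs at −0.427 to 0.179. The chi-square statistic per gene between cultures of one condition was 40.1 to 169, well above sampling noise, and all 6 were kept as separate libraries.

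Counts were tested with edgeR 4.0.16 (R 4.3.3): filterByExpr by condition, TMM, glmQLFit and glmQLFTest with batch and condition, and Benjamini-Hochberg adjustment over 14916 genes at 0.05. The SE of a log2 fold change is its size divided by the square root of F. A level of 3 counts corresponds to 0.119 to 0.148 CPM. Profiles used log2 CPM with a prior count of 2. Steps were tested on simulated data. The 10 genes and the lists were chosen with earlier results of these data known. Genes named besides them are every partner, the up to 4 called genes with the lowest adjusted p per direction in each wider list, *Gpsm2*, *Numa1*, *Ppp1r13l* and the 5 nearest profiles. Alternatives were DESeq2 1.42.0, DESeq2's size factors or upper-quartile scaling in edgeR, no filter beyond 1 count, at least 10 counts in every library, robust dispersion, no batch term, a loess correction for gene length (span 0.3) and each batch left out. Promoter windows are RefSeq's (GRCm38.p6; 32851 windows of 300 bases). Read-length windows of 42 bases come from the longest GENCODE vM21 transcript of each gene.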

Additional observations from a re-analysis of the deposited data

How the results depend on the processing

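The log2 fold changes of the 10 genes were negative under all 11 alternatives. With the replicate block (batch) taken out of the model, the calls fell to 0 among the 10 genes and 0 among partners. They also fell to 0 in the spindle assembly and 0 in the cytokinesis list, and to 0 lower and 0 higher over all genes. Of the 14916 genes tested, 331 were lower and 360 higher at an unadjusted p under 0.05 in that model. The cause of the lost calls was not tested. DESeq2 called 7 partners, 6 cytokinesis genes and 1 spindle orientation gene lower. Without the filter beyond 1 count, 491 genes were lower and 624 higher over all genes, with 7 partners, 7 cytokinesis genes and 1 orientation gene lower and with *Anxa11* (cytokinesis, adjusted p = 0.0111) and *Gpsm1* (orientation, 0.00197) higher. Robust dispersion gave 5 cytokinesis genes. Leaving out each batch in turn gave 5 to 10 calls among the 10 genes, 3 to 6 among partners, 4 to 12 in the spindle assembly, 1 to 8 in the cytokinesis and 0 to 3 in the orientation list, 117 to 662 lower and 169 to 793 higher genes over all, and a median log2 fold change of the 10 genes of −1.46 to −0.97. The 5 calls and the median of −0.97 came without batch 1; each of these fits holds 4 cultures. RLE and upper-quartile scaling, a minimum of 10 counts and the gene-length correction with the replicate block changed no call among the 10 genes.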

Other observations

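Within the wider lists, genes were also grouped by complex or pathway, after their values were seen and with no test of the group. Counts at an unadjusted p under 0.05 are given without the share of all tested genes at that threshold, so they are descriptions only. The 4 genes of the chromosomal passenger complex, which corrects chromosome attachment and then marks the division plane, all had negative log2 fold changes (median −1.09). edgeR called 1 of them lower (*Cdca8*), beside 1.95% of all tested genes, and DESeq2 called 3. Of the 8 augmin genes, whose products branch new microtubules from existing ones, 6 were negative (median −0.53) and 2 were lower in iASPP KO, *Haus8* (log2 fold change −0.98, adjusted p = 0.0172) and *Haus3* (−0.68, adjusted p = 0.0431, edgeR). Without batch 1 both lost the call (adjusted p = 0.0831 and 0.199), and *Haus3* also lost it without batch 2 (0.106). At an unadjusted p under 0.05, 5 of the 8 augmin genes were lower and 1 was higher. Another 8 genes, those of the gamma-tubulin ring complex that nucleates microtubules, had a median of −0.11 with 0 called by edgeR or DESeq2 and 1 lower at an unadjusted p under 0.05.

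The 5 septins, which line the furrow, had a median of −0.17, and 0 were called by edgeR or DESeq2 or had an unadjusted p under 0.05. The 12 ESCRT and VPS4 genes, which cut the bridge that *Cep55* marks, had a median of 0.14, with 0 called by edgeR or DESeq2 and 1 higher at an unadjusted p under 0.05. The 4 genes of the *Ran* and importin group, which release spindle factors around chromosomes, had a median of −0.26, with 0 called by edgeR, and 1 was lower at an unadjusted p under 0.05 and with DESeq2. The 9 dynein and dynactin genes, which pull on the spindle from the cortex, had a median of 0.06, with 0 called by edgeR or DESeq2 and 1 higher at an unadjusted p under 0.05. The 9 genes of cell polarity had a median of −0.05, with 0 called by edgeR, 1 lower with DESeq2, and 1 lower and 2 higher at an unadjusted p under 0.05. The 5 G protein alpha i and GPSM genes, whose products link the cortex to the spindle, had a median of −0.04, with 0 called by edgeR or DESeq2 and 1 lower and 1 higher at an unadjusted p under 0.05.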
